A study of Homo sapiens with 4 samples.

Results

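Expression of 35 genes of glycolysis and of the cellular response to low oxygen was followed in A375 cells that were sensitive or resistant to inhibitors of the MAPK pathway. The 35 genes were given by name and were matched by symbol to the Ensembl identifiers of the count tables, of which 34241 are listed in any table. Every gene was found in all 4 tables and had at least 1 UMI (unique molecular identifier, a counted transcript molecule) in every library. ALDOA was set apart, because an overlapping gene is listed in part of the tables, and the remaining 34 genes were also summed.

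A375 is an established human melanoma line with the BRAF V600E mutation. Untreated cells (S) were compared with cells that had been kept on vemurafenib, a BRAF inhibitor (RV), on vemurafenib with cobimetinib (RVC) and on vemurafenib with trametinib (RVT), cobimetinib and trametinib both being inhibitors of MEK. The drugs were given for 10 to 14 days at low concentrations derived from earlier IC50 measurements, and were withdrawn 24 h before capture, so that no library was measured under drug. Each condition was 1 culture of this line and 1 droplet library, for which 10000 cells were loaded. With 1 library per condition, no test between conditions was possible, and how far replicate cultures would differ is unknown. Ranges given beside values are exact 95% intervals and cover counting error only.

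Glycolysis converts glucose to pyruvate through a fixed order of enzymes, and several of its steps are served by isozymes encoded by separate genes. When oxygen is scarce, the prolyl hydroxylases of the EGLN family no longer mark the HIF alpha subunits for destruction by the VHL protein, and HIF, paired with ARNT, switches on glucose transporters, most glycolytic enzymes and genes of survival, pH control and vessel growth. Melanoma cells with mutant BRAF are known for a high glycolytic flux that depends on MAPK signalling. The sources used here name no oxygen level for these cultures.

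HIF binds DNA at a short core spelled ACGTG or GCGTG. RefSeq promoter windows on GRCh38.p14, from 250 bases before to 50 bases after a transcription start, were found for 30 of the 35 genes, and none was used for SLC2A3, SLC16A1, BNIP3L, NDRG1 and VEGFA. Among the 30 genes, 19 (63.3%) had ACGTG on either strand in at least 1 window, compared with 24.9% of all 27305 genes in the table. GCGTG was present in 19 (63.3%) of the genes and in 40.6% of all genes. Genes can have several windows. Counted by window, ACGTG was in 39.0% of the 59 windows of these genes and in 21.4% of all 35116 windows, and GCGTG in 42.4% and 36.5%. The windows of these genes were also richer in G and C, with a median of 68.7% compared with 58.7%. ACGTG can lie inside CACGTG, which other factors bind as well, and a match of letters does not show binding.

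The windows of 5 genes that differed by more than 2-fold in at least 1 comparison with S are shown, namely 4 genes of the hypoxia response and the enolase ENO2. Each of these 5 windows holds a match to ACGTG or to GCGTG, but not all genes past 2-fold are shown. TPI1, past 2-fold in RVC, had a window with neither ACGTG nor GCGTG and a window with both. The share of all genes with ACGTG or GCGTG was not counted. KDM3A, which also passed 2-fold against S, had no ACGTG in its windows, but 1 match to GCGTG in each. EGLN3, with too few UMIs for a comparison, had neither ACGTG nor GCGTG. Of the 8 genes of the hypoxia response with windows, 5 (62.5%) had ACGTG and 4 had GCGTG in at least 1 window. Capitals mark matches on either strand to the motif ACGTG, whose reverse complement reads CACGT, or to the motif GCGTG, whose reverse complement reads CACGC. The window of CA9 lies at chr9:35673678-35673977 on the plus strand, that of ADM at chr11:10304823-10305122 on the plus strand, that of ENO2 at chr12:6914330-6914629 on the plus strand, that of BNIP3 at chr10:131981874-131982173 on the minus strand and that of P4HA1 at chr10:73096817-73097116 on the minus strand. Each window spans the end of the promoter and the start of the first exon.
CA9: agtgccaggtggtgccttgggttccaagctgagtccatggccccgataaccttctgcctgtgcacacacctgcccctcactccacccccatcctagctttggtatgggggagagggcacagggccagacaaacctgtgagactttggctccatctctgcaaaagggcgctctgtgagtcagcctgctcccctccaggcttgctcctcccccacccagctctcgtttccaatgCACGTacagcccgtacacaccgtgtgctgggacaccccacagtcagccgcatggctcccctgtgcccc
ADM: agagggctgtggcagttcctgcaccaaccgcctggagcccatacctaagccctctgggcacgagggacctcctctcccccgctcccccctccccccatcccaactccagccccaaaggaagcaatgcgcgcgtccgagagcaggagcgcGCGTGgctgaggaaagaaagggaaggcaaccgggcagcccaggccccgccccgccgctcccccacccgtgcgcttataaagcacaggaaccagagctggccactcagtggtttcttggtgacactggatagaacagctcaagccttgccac
ENO2: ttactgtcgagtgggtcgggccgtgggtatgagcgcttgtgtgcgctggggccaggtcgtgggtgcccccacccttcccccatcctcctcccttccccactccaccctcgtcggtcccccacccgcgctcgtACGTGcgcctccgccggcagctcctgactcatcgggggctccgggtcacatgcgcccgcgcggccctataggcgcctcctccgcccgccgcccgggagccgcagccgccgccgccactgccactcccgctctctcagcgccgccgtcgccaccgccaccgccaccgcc
BNIP3: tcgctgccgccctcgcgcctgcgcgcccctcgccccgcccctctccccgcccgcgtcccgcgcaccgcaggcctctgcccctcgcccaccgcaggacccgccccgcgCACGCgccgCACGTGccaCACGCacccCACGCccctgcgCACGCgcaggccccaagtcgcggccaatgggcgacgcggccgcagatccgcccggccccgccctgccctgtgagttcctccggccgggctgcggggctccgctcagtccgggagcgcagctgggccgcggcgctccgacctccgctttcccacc
P4HA1: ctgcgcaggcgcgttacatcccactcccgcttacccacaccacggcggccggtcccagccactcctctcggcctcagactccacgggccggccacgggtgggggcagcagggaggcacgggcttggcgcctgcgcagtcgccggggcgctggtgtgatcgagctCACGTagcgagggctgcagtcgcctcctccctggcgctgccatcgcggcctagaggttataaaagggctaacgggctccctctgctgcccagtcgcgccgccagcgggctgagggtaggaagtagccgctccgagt

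BNIP3 had 1 CACGTG site, which counts as 2 matches to ACGTG because it reads the same on both strands, and 4 matches to GCGTG. CA9, ENO2 and P4HA1 had 1 match each to ACGTG, and ADM had 1 match to GCGTG.

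The filtered libraries held 4177 to 8536 cells. Total UMIs ranged from 25752156 in RVT to 58478372 in S, and the median cell had 8804 UMIs (S), 11553 (RV), 3959 (RVC) and 2877 (RVT). The median share of mitochondrial UMIs was 3.16% (S), 3.06% (RV), 3.58% (RVC) and 5.77% (RVT), and barcodes under 500 genes (903 in RVC and 1084 in RVT) or over 20% mitochondrial UMIs (478 and 580) had been removed almost only from these libraries, with 0 and at most 2 in S and RV. S and RV were counted with another gene annotation than RVC and RVT, with 32991 identifiers in common. The log2 ratios of 6509 genes with at least 10 CPM (counts per 1000000 UMIs of a library) in the mean of the libraries were lower for transcripts whose last 500 bases were rich in GC when RVC or RVT was compared with S (Spearman correlation across genes -0.34 and -0.41), whereas the correlation was 0.01 between RV and S, and -0.17 between RVT and RVC. The drugs, the annotation and this trend cannot be told apart in RVC and RVT against S. After centring within bins of GC content, 21 of the 136 log2 ratios of the 34 genes turned in direction, 1 in RV over S, 8 in RVC over S, 10 in RVT over S and 2 in RVT over RVC, and these are given beside the genes. The 8 markers of the melanocyte lineage had a summed level of 140 CPM (S), 70.8 (RV), 11.2 (RVC) and 77.4 (RVT). The pigment genes TYR, DCT, MLANA and PMEL had 0 to 23 UMIs, whereas SOX10 was at 86.7 CPM in S and 40.2 in RV, at 0 UMIs in RVC and at 19.3 CPM in RVT, S100B was at 33.2 CPM in S and at 0 UMIs in RVC, and MITF was highest in RVT (40.7 CPM). Markers of immune and endothelial cells were near 0, whereas 6 fibroblast markers summed to 0.80 in S against 0.88 (RV), 182 (RVC) and 36.9 (RVT), mainly through COL3A1 in RVC (122) and LUM in RVT (22.0). The 5 epithelial markers summed to 898 CPM in S and 1738 in RV, but 201 in RVC and 259 in RVT, nearly all of it KRT18 and KRT8, whereas CDH1 was at 0 and EPCAM at no more than 6 UMIs in any library. The part of these differences in the results below was not tested. Between 36 and 105 cell barcodes were shared by any pair of filtered libraries.

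Summed over the 34 genes, the level was 16750 CPM in S and 18520 in RV, and 16030 in RVC and 7455 in RVT. The sum was thus lowest in RVT, 2.25-fold lower than in S (log2 ratio -1.17, -1.18 to -1.16) and 2.15-fold lower than in RVC (log2 ratio -1.10). RVT was also the library with the highest mitochondrial share and the fewest UMIs per cell, and their part in this difference was not tested. RV was close to S (0.14), and RVC was slightly below S (-0.06), which turned to 0.19 after centring on GC content. GAPDH alone made up 66.2% of the sum in S and 61.8% in RV, but 48.9% in RVC and 43.6% in RVT. Without GAPDH, the sum was 5663 CPM (S), 7081 (RV), 8197 (RVC) and 4201 (RVT), so that RVC had the highest level and RVT the lowest. The median gene over all 6509 genes had a log2 ratio over S of 0.02 (RV), 0.16 (RVC) and 0.22 (RVT). TMM scaling moved it to -0.30 in RVT and the ratio of the sum to -1.69, whereas centring on GC content moved the ratio of the sum in RVT to -0.73, under 2-fold.

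**Figure D1:**
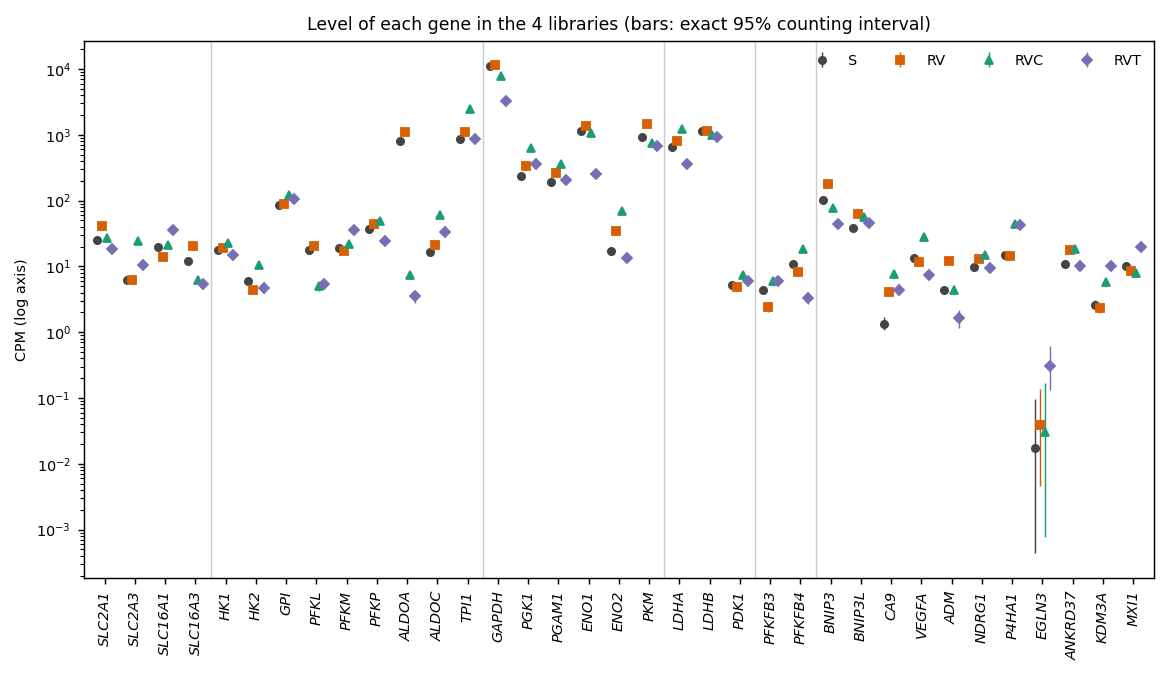
Level of each of the 35 genes in the 4 libraries, in CPM on a log axis, with exact 95% counting intervals as bars and the genes ordered by role. TPI1, PGK1, ALDOC and ENO2 were highest in RVC, ENO1, LDHA and GAPDH were lowest in RVT, and EGLN3 rested on at most 8 UMIs in any library.

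Of the 34 genes, 27 reached 10 CPM in the mean of the libraries, and HK2, PDK1, PFKFB3, CA9, ADM, EGLN3 and KDM3A did not. In RV over S, 1 of the 27 (ENO2) was at least 2-fold higher and 0 were at least 2-fold lower, compared with 1.87% and 1.21% of all genes at this level. In RVC over S, 7 of the 27 (25.9%) were higher, namely SLC2A3, ALDOC, TPI1, PGK1, ENO2, VEGFA and P4HA1, and PFKL was lower. These counts stand beside 22.5% higher and 23.3% lower among all genes, and PFKL turned in direction after centring on GC content. In RVT over S, P4HA1 (3.7%) was higher, and SLC16A3, PFKL, GAPDH, ENO1, PFKFB4 and BNIP3 (22.2%) were lower, compared with 28.4% and 24.4% of all genes. In RVT over RVC, MXI1 (3.7%) was higher and 8 genes (29.6%) were lower, compared with 15.1% and 11.7%. The 8 genes were SLC2A3, TPI1, GAPDH, ENO1, ENO2, LDHA, PFKFB4 and VEGFA. The minimum of 10 CPM was taken in the mean of these same libraries. SLC2A3 and PFKFB4 passed it through RVC, MXI1 through RVT, and SLC16A3 and PFKL through S and RV. This favours counts of genes that are higher in those libraries, also among all genes, and no conclusion is drawn from these shares. The median log2 ratio of the 27 genes, as counted, was 0.25 in RV, 0.51 in RVC and -0.28 in RVT over S. Over all genes it was 0.02, 0.16 and 0.22. In RVT over RVC the median of the 27 genes was -0.78, beside 0.16 over all genes, and 23 of the 27 genes were below 0. The share of all genes below 0 was not counted.

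**Figure D2:**
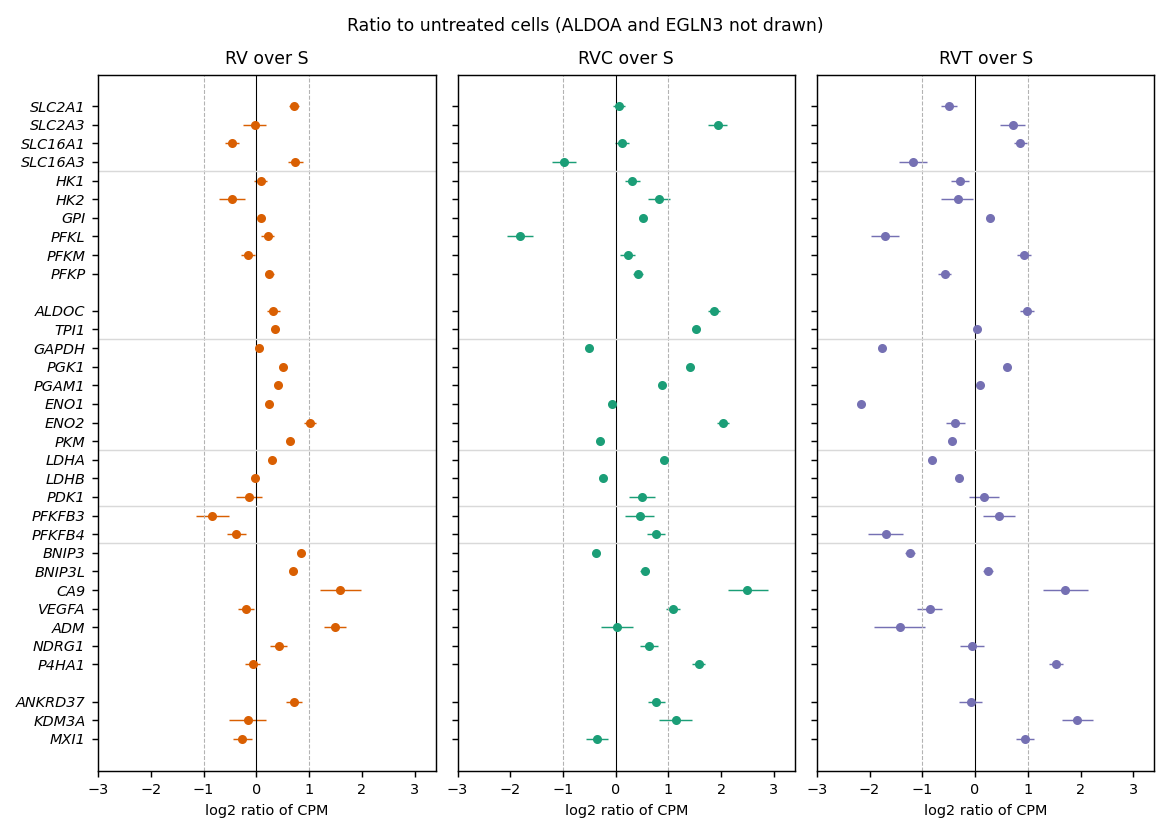
log2 ratio of CPM to S for RV, RVC and RVT, a point per gene with its exact 95% counting interval, and dashed lines at 2-fold. Most genes lay right of 0 in RVC (19 of the 27 genes with at least 10 CPM), whereas 16 of the 27 lay left of 0 in RVT. The median over all genes was 0.16 in RVC and 0.22 in RVT, and the share of all genes on each side of 0 was not counted.

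Glucose enters cells through transporters of the SLC2A family. SLC2A1, which encodes the widespread transporter GLUT1, had 25.6 CPM in S against 41.8 (RV), 26.7 (RVC) and 18.2 (RVT). It was highest in RV, 1.64-fold above S. In RVT it was 1.40-fold lower than in S, and in RVC its log2 ratio of 0.06 turned to -0.38 after centring on GC content. The gene AC099795.1 shares 112 exon bases with SLC2A1 on the same strand, none of them in its last 500 exon bases. AC099795.1 is listed only for RVC and RVT, with 0 UMIs in each, and its part in the counts of SLC2A1 was not tested. SLC2A3, which encodes the high-affinity transporter GLUT3, had 6.31 in S and 6.19 in RV, and 24.1 in RVC and 10.3 in RVT. Thus S and RV did not differ beyond counting error (log2 ratio -0.03, -0.25 to 0.19, but 1.20 in cells of 3000 to 6000 UMIs), whereas RVC was 3.82-fold above S (1.93, 1.75 to 2.11) and RVT 1.64-fold above it. In RVT the log2 ratio of 0.71 was 0.19 with TMM scaling. Shares within a family are shares of counted molecules (UMIs) and were not corrected for transcript length. SLC2A3 made up 19.8% of the UMIs of the pair in S and 12.9% in RV, but 47.4% in RVC and 36.2% in RVT.

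Lactate leaves and enters cells through monocarboxylate transporters. SLC16A1 encodes MCT1, which carries lactate in both directions, and its level was 19.4 CPM (S), 14.1 (RV), 21.2 (RVC) and 35.2 (RVT). SLC16A3 encodes MCT4, the exporter of strongly glycolytic cells, and had 12.2 in S against 20.4 (RV), 6.19 (RVC) and 5.40 (RVT). The pair differed from S in opposite directions in RV, where SLC16A3 was 1.67-fold higher and SLC16A1 1.38-fold lower than in S, and in RVT, where SLC16A1 was 1.81-fold higher and SLC16A3 2.27-fold lower. SLC16A3 thereby took 38.7% of the pair in S and 59.2% in RV, but 22.6% in RVC and 13.3% in RVT. The transcript end of SLC16A3 has 65.4% GC, and genes in its GC bin had a median log2 ratio of -2.50 in RVC and -2.41 in RVT over S. After centring on GC content its ratios turned to 1.51 in RVC and 1.23 in RVT, and its share of the pair to 70.7% and 56.5%, above that in S. For SLC16A1 centring turned the ratio in RVC from 0.12 to -0.42 and left 0.18 in RVT. The log2 ratio of SLC16A3 in RV, 0.74 as counted, ranged from 0.67 to 1.62 across the alternative settings. SLC16A3 also overlaps CSNK1D on the opposite strand, over 245 of its last 500 exon bases.

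The first steps of glycolysis trap and split glucose. Hexokinase HK1 had 18.0 CPM in S and 19.1 in RV, and 22.4 in RVC and 14.8 in RVT, and HK2, the isozyme usually induced in tumours, had 6.02, 4.38, 10.6 and 4.78. HK2 was thus 1.77-fold higher in RVC than in S and took 32.2% of the hexokinase UMIs there, compared with 25.1% in S, 18.6% in RV and 24.4% in RVT. After centring on GC content this share was 22.0% in RVC and 13.5% in RVT, both below that in S, the ratio of HK1 in RVT turned from -0.28 to 0.07 and that of HK2 in RVT went from -0.33 to -1.03. In cells of 3000 to 6000 UMIs the ratio of HK2 in RV went from -0.46 to -2.17. GPI, the isomerase of the next step, varied little, with 85.3 (S), 90.3 (RV), 121 (RVC) and 104 (RVT), and its ratio in RVT turned from 0.29 to -0.03 after centring.

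Phosphofructokinase commits the sugar to glycolysis and is built from the liver, muscle and platelet type subunits PFKL, PFKM and PFKP. Their summed level was similar in the libraries, with 73.3 CPM in S against 81.1 (RV), 76.4 (RVC) and 66.0 (RVT). PFKM had 18.9 in S and 17.0 in RV, and 22.1 in RVC and 35.9 in RVT, and took 25.8% of the family in S but 54.4% in RVT. PFKP had 36.9, 43.8, 49.3 and 24.7, with its largest share in RVC (64.5%) and its smallest in RVT (37.5%). PFKL had 17.5, 20.3, 4.99 and 5.36, which was 3.50-fold lower than S in RVC and 3.26-fold lower in RVT. Like SLC16A3, PFKL has a GC-rich transcript end (66.8%), and after centring on GC content its log2 ratios turned from -1.81 to 0.69 in RVC and from -1.71 to 0.70 in RVT. With centred ratios PFKP took 50.3% of the family in RVC, as in S (50.4%), and 29.4% in RVT, and PFKM took 35.5% in RVT, while the ratio of PFKM in RVC turned from 0.23 to -0.05. Within RVT and RVC, which shared the annotation, PFKL did not differ beyond counting error (0.10, -0.23 to 0.44), whereas PFKM was 1.62-fold higher and PFKP 1.99-fold lower in RVT.

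Aldolase and triose phosphate isomerase complete the upper part of the pathway. ALDOC, the aldolase of the brain, had 16.7 CPM (S), 20.9 (RV), 60.7 (RVC) and 33.1 (RVT), and was 3.63-fold above S in RVC and 1.98-fold in RVT. Its log2 ratio in RVT went from 0.98 to 0.46 with TMM scaling. In RV it turned from 0.32 to -0.41 in cells of 3000 to 6000 UMIs. TPI1, the isomerase, had 856 in S against 1091 (RV), 2445 (RVC) and 878 (RVT). It was 2.86-fold higher in RVC than in S (log2 ratio 1.52), whereas RVT was near S (0.04, -0.02 after centring on GC content and -0.48 with TMM scaling). The counting is not stated to have used strand, and genes on the opposite strand overlap 251 of the last 500 exon bases of ALDOC, 422 of those of GAPDH, 350 of those of ANKRD37 and 330 of those of BNIP3L, so that reads of these genes and their partners may not be told apart.

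ALDOA, the main aldolase of most cells, is the gene that was set apart. It lies at chr16:30064164-30070457 (GRCh38, GENCODE 29) and had 820 CPM in S and 1099 in RV, and 7.30 in RVC and 3.50 in RVT. The gene AC093512.2 lies on the same strand and shares 376 of the last 500 exon bases of ALDOA. It is listed only in the tables of RVC and RVT, with 3 UMIs in RVC and 0 in RVT. The ratio of ALDOA between these tables and those of S and RV is therefore not interpreted. Within the pairs of libraries that share an annotation, ALDOA was 1.34-fold higher in RV than in S and 2.09-fold lower in RVT than in RVC, which rested on 90 and 243 UMIs and fell under 2-fold with at least 1000 genes per cell (log2 ratio -0.90) and with library sizes without ribosomal and mitochondrial genes (-0.95). With ALDOA included, the log2 ratio of the sum over all 35 genes was -0.13 in RVC and -1.24 in RVT over S.

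In the lower part of the pathway, which yields ATP and pyruvate, the genes fell into separate patterns. GAPDH had 11090 CPM (S), 11440 (RV), 7830 (RVC) and 3253 (RVT), and ENO1, the common enolase, had 1142, 1354, 1083 and 255. Both were lowest in RVT, where GAPDH was 3.41-fold lower than S (log2 ratio -1.77) and ENO1 4.48-fold lower (-2.16). Centring on GC content left -0.96 for GAPDH and -1.35 for ENO1, and turned the small ratios of GAPDH in RV (0.04 to -0.0069) and of ENO1 in RVC (-0.08 to 0.42). RVT was also lower than RVC, which shared its annotation, by 2.41-fold for GAPDH and 4.24-fold for ENO1. GAPDH has 62 named pseudogenes in GENCODE 29 and BNIP3 has 39, none of which is listed in the tables, so that reads shared with these copies are an uncertainty of their levels.

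PGK1 and PGAM1 followed another order. PGK1, the first ATP-forming enzyme of glycolysis, had 234 CPM in S against 332 (RV), 621 (RVC) and 358 (RVT). PGAM1, the mutase of the next step, had 195, 259, 357 and 207. Both were highest in RVC, 2.65-fold above S for PGK1 and 1.83-fold for PGAM1, and PGK1 was above S in RV (1.42-fold) and RVT (1.53-fold) too. With TMM scaling the log2 ratio of PGK1 in RVT went from 0.61 to 0.09. After centring on GC content the log2 ratio of PGAM1 in RVC went from 0.87 to 0.43, and that in RVT turned from 0.09 to -0.40.

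ENO2, the neuronal enolase and a marker of neuroendocrine differentiation, had 17.3 CPM in S and 34.9 in RV, and 70.8 in RVC and 13.3 in RVT. It was 2.02-fold above S in RV (log2 ratio 1.01, 0.90 to 1.13), which lies at the 2-fold line and fell under it to 0.97 with TMM scaling, and 4.10-fold above S in RVC (2.04, 1.93 to 2.14). RVT was 5.33-fold lower than RVC. The share of ENO2 in the enolase UMIs was 1.49% (S), 2.51% (RV), 6.13% (RVC) and 4.95% (RVT), so that its share stayed above S in RVT although its level did not. With ratios centred on GC content the share was 4.24% in RVC and 2.78% in RVT. PKM, which encodes a pyruvate kinase, had 923 in S against 1437 (RV), 750 (RVC) and 679 (RVT), and was thus highest in RV (1.56-fold above S). In RVC and RVT its log2 ratios of -0.30 and -0.44 to S turned to 0.19 and 0.36 after centring on GC content, and that of RVT over RVC from -0.14 to 0.04.

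Lactate dehydrogenase converts pyruvate to lactate and back. LDHA, the form that favours lactate, had 647 CPM in S and 800 in RV, and 1219 in RVC and 367 in RVT. LDHB, the form of oxidative tissues, had 1157, 1133, 983 and 942. LDHB thus varied little, whereas LDHA was 1.88-fold above S in RVC and 1.77-fold below it in RVT. LDHA made up 35.9% of the pair in S (35.6% to 36.2%) and 41.4% in RV, but 55.4% in RVC and 28.0% in RVT, and outnumbered LDHB in RVC only, where the share was 49.8% with ratios centred on GC content. Centring moved the log2 ratio of LDHA in RVC from 0.91 to 0.36 and in RVT from -0.82 to -1.50. Between RVC and RVT, LDHA differed 3.32-fold and LDHB 1.04-fold. PDK1, which inhibits pyruvate dehydrogenase, was low, with 5.30 (S), 4.80 (RV), 7.45 (RVC) and 5.94 (RVT), and its ratio in RVT turned from 0.16 to -0.54 after centring.

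The PFKFB enzymes set the level of the activator of phosphofructokinase. PFKFB4 had 10.8 CPM in S against 8.28 (RV), 18.3 (RVC) and 3.34 (RVT), and was 5.47-fold lower in RVT than in RVC, where it was highest. PFKFB3 had 4.33, 2.43, 5.92 and 5.94, with no difference between RVC and RVT beyond counting error (log2 ratio 0.01, -0.31 to 0.32). PFKFB3 therefore took 64.0% of the pair in RVT, compared with 22.7% to 28.7% in the other libraries, and 54.1% in RVT with centred ratios. Centring turned the ratio of PFKFB3 in RVT over S from 0.46 to -0.03 and in RVT over RVC to -0.19, and in RV over S the ratio turned from -0.83 to 0.91 in cells of 3000 to 6000 UMIs. PFKFB4 shares 289 exon bases with UCN2 on the same strand, none of them in its last 500 exon bases. UCN2 had 9.94 CPM in S and 13.8 in RV, and 1.32 in RVC and 0.04 in RVT, and its part in the counts of PFKFB4 was not tested.

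**Figure D3:**
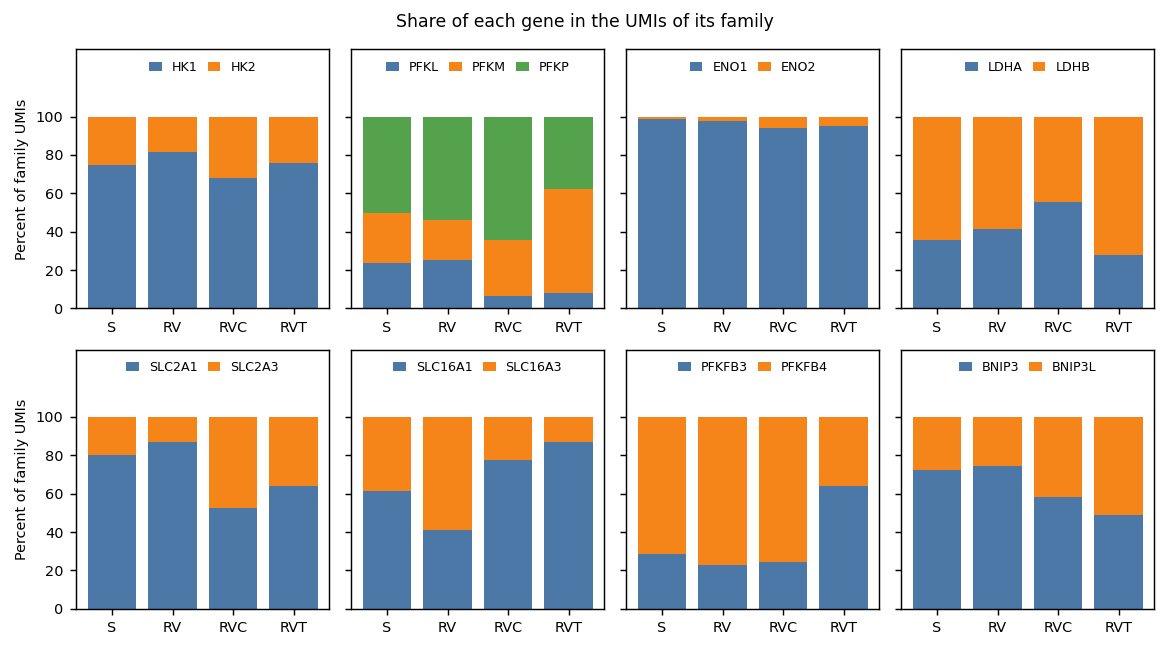
Share of each gene in the UMIs of its pair or family, in percent, for 8 families in the 4 libraries. As counted, without centring on GC content, LDHA exceeded LDHB in RVC only, PFKM took the largest share of its family in RVT, SLC2A3 reached 47.4% in RVC, and PFKFB3 exceeded PFKFB4 in RVT only.

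The genes of the wider hypoxia response did not vary as a block. Their summed level was 208 CPM (S), 329 (RV), 268 (RVC) and 196 (RVT), so that it was highest in RV (1.58-fold above S). In RV this rested on BNIP3 and BNIP3L, which promote the removal of mitochondria. BNIP3 had 102 in S against 182 (RV), 78.5 (RVC) and 43.4 (RVT), and was 1.79-fold above S in RV and 2.34-fold below it in RVT. BNIP3L had 38.7, 62.5, 56.6 and 45.8, and was above S in each resistant library as counted. In RVC its log2 ratio of 0.55 was 0.07 after centring on GC content. In RVT it turned from 0.24 to -0.27 with TMM scaling and to -0.46 with centring. BNIP3L took 27.6% of the pair in S and 51.4% in RVT.

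Both CA9, a carbonic anhydrase of the cell surface that keeps the pH of hypoxic cells, and ADM, which encodes the vasoactive peptide adrenomedullin, were low. CA9 had 1.35 CPM in S and 4.07 in RV, and 7.63 in RVC and 4.43 in RVT, which rested on 79, 213, 254 and 114 UMIs. It was above S in every resistant library, by 3.01-fold in RV (log2 ratio 1.59, 1.21 to 1.98), 5.65-fold in RVC (2.50, 2.13 to 2.88) and 3.28-fold in RVT (1.71, 1.29 to 2.15). In cells of 3000 to 6000 UMIs, of which S had 760 and RV 219, the log2 ratio was 0.98 in RV, 1.19 in RVC and 0.03 in RVT. ADM had 4.36, 12.2, 4.45 and 1.63, and was 2.81-fold above S in RV (1.49, 1.28 to 1.70), close to S in RVC (0.03, which turned to -0.42 after centring on GC content) and 2.67-fold below it in RVT, where it rested on 42 UMIs. In cells of 3000 to 6000 UMIs the log2 ratio of ADM was 3.49 in RV and -0.92 in RVT.

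VEGFA, the growth factor of blood vessels, and P4HA1, a prolyl hydroxylase of collagen, were both higher in RVC than in S. VEGFA had 13.3 CPM (S), 11.7 (RV), 28.3 (RVC) and 7.34 (RVT). It was 2.13-fold above S in RVC, although the log2 ratio of 1.09 was 0.42 after centring on GC content, and RVT was 3.86-fold below RVC. Against S its ratio in RVT went from -0.86 to -1.65 with centring. P4HA1 had 15.0, 14.3, 44.8 and 43.3, and was therefore 2.98-fold above S in RVC and 2.88-fold in RVT, with no difference between RVC and RVT beyond counting error (log2 ratio -0.05, -0.16 to 0.06). Centring on GC content left 1.07 in RVC and 0.72 in RVT.

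KDM3A and MXI1 were highest in RVT. KDM3A, a histone demethylase induced by HIF, had 2.63 CPM in S against 2.35 (RV), 5.80 (RVC) and 10.1 (RVT), which was 3.82-fold above S in RVT (log2 ratio 1.93, 1.64 to 2.23). In RV its ratio turned from -0.16 to 0.79 in cells of 3000 to 6000 UMIs. MXI1, which opposes MYC, had 10.3, 8.54, 8.02 and 19.8, and was 1.92-fold above S in RVT and 2.47-fold above RVC, although centring on GC content moved the log2 ratio to S from 0.94 to 0.27. NDRG1, a stress-induced gene of differentiation, had 9.73, 13.1, 15.1 and 9.36, and ANKRD37, a small HIF target, had 10.7, 17.6, 18.3 and 10.1. Both were higher in RV and RVC than in S and close to S in RVT. EGLN3, the hypoxia-induced prolyl hydroxylase, had 1 UMI each in S and RVC, 2 in RV and 8 in RVT, which is too few for a comparison at this depth.

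The sum, ENO1 and CA9 were also described per cell. These values come from the same UMIs as the levels above and are not independent of them. To compare cells at equal depth, 1500 UMIs were drawn from each cell, and cells with fewer UMIs were left out (403 in RVC and 849 in RVT). The 34 genes then took a median of 1.67% of a cell's UMIs in S (quartiles 1.33% and 1.93%), 1.80% in RV (1.47% and 2.20%), 1.53% in RVC (1.13% and 2.00%) and 0.73% in RVT (0.53% and 0.87%). The upper quartile in RVT thus lay under the lower quartiles of the other libraries. Undrawn medians were 1.65%, 1.83%, 1.54% and 0.71%. ENO1 had a UMI in 78.8% of the drawn S cells, 82.4% of RV, 75.0% of RVC and 30.5% of RVT cells, and in 99.3%, 99.9%, 92.4% and 48.8% without drawing. CA9 had a UMI in 0.22%, 0.65%, 1.10% and 0.57% of the drawn cells. No cell type known to lack these genes was available in these cultures of 1 line, so that the share given by free RNA was not measured.

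**Figure D4:**
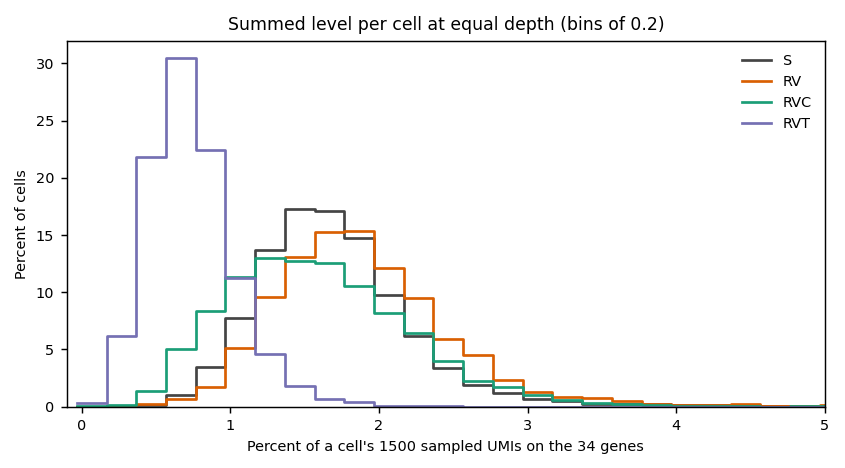
Distribution over cells of the share of 1500 drawn UMIs that fell on the 34 genes, in bins of 0.2%, as a percent of the cells of each library. RVT cells centre on 0.73%, and the cells of S, RV and RVC on 1.53% to 1.80% with broad overlap.

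Whether the genes varied together with other hypoxia targets from cell to cell was described within each library, where neither the annotation nor the drug differs. Cells were ranked by the share of their UMIs on 26 hypoxia targets that are not among the 35 genes, and the 25% with the highest share were compared with the 25% with the lowest. Median depth was similar in both sets, with 8464 and 8255 UMIs in S, 10851 and 11198 in RV, 3506 and 3522 in RVC, and 2516 and 2879 in RVT. Of the genes with at least 100 UMIs in both sets together, 5 of 31 in S, 12 of 31 in RV, 8 of 28 in RVC and 2 of 24 in RVT were at least 1.5-fold higher in the highest 25%. None was 1.5-fold lower, as were only 0.269% to 1.05% of all genes in the 4 libraries. Among all genes at this count, 2.27% in S and 6.97% in RV, and 1.61% in RVC and 2.87% in RVT were higher. The median log2 ratio of the genes was 0.30 (S), 0.52 (RV), 0.29 (RVC) and 0.24 (RVT), compared with 0.12, 0.16, 0.04 and 0.14 for all genes. Cells of a library are not replicates, and no test was made over them.

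The ranking rested on partly different genes in each library, with DDIT4 at 170 of the 568.5 CPM of the 26 targets in RV and at 17.4 of 768.6 in RVC, and depth differed too, so that the sizes of these ratios are not comparable between libraries. CA9 was at 11.7 CPM in the highest 25% of RV cells and 1.42 in the lowest, NDRG1 at 27.5 and 8.11, BNIP3 at 298 and 126, and PGK1 at 492 and 244. The corresponding log2 ratios were 3.04, 1.76, 1.24 and 1.01. In RVC the ratios were 0.77 for CA9, 0.82 for NDRG1, 0.60 for BNIP3 and 0.49 for PGK1. In RVT, LDHA (0.71) and P4HA1 (0.67) passed 1.5-fold, with PGK1 at 0.47. GAPDH, LDHB and PFKM had ratios between -0.14 and 0.24 in the 4 libraries, so that the isozymes LDHA and LDHB differed here too, with 0.52 and 0.06 in RV.

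**Figure D5:**
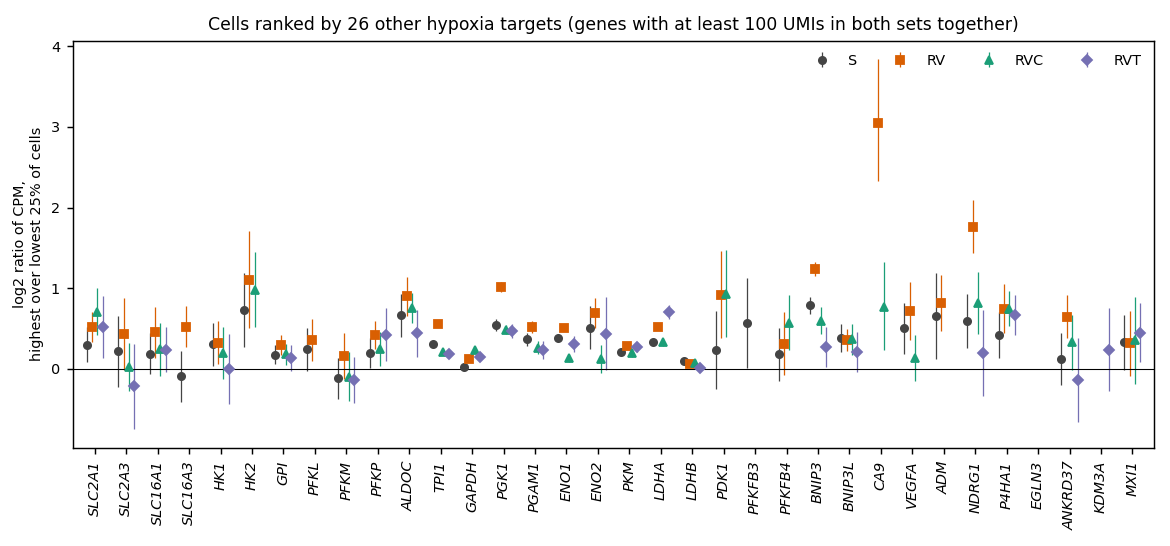
log2 ratio of CPM between the 25% of cells with the highest and the lowest share of 26 other hypoxia targets, for each of the 34 genes with at least 100 UMIs, with exact 95% counting intervals. RV points lie highest for CA9, NDRG1, BNIP3 and PGK1, and the points of GAPDH, LDHB and PFKM lie near 0 in all libraries.

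Other genes of the pathway were described from lists chosen by function. Of 12 genes of the HIF machinery, 8 reached 10 CPM. Against S, 0 of the 8 were past 2-fold in RV, 3 were higher and 1 lower in RVC, and 5 were higher and 1 lower in RVT. These are 37.5% and 12.5% of the list in RVC and 62.5% and 12.5% in RVT, beside 22.5% and 23.3%, and 28.4% and 24.4%, of all genes. The minimum of 10 CPM was taken in the mean of the 4 libraries. ARNT, CREBBP, EGLN1 and CITED2, under 10 CPM in S and RV, passed it through RVC or RVT. This favours counts of higher genes there, also among all genes, and no conclusion is drawn from these shares. ARNT, the partner of HIF alpha, had 5.49 in S against 4.68 (RV), 12.3 (RVC) and 31.6 (RVT), and the coactivator CREBBP had 9.82, 7.85, 20.2 and 43.0. EGLN1, the main oxygen sensor, had 6.84, 5.96, 16.1 and 23.8. These 3 genes were thus higher in RVC and RVT, although in RVC centring on GC content left log2 ratios to S of 0.76, 0.96 and 0.62, which lie under 2-fold, and CITED2, an inhibitor of HIF that is itself induced by it, was high in RVT alone, with 2.80, 4.51, 4.96 and 32.9. HIF1A and EPAS1 are named after their values were seen. HIF1A had 30.6, 39.4, 51.8 and 101, and its log2 ratio of 1.72 in RVT was 0.96 after centring, under 2-fold. EPAS1, which did not reach 10 CPM in the mean, had 0.74, 0.80, 1.26 and 17.4. The opposite held for EGLN2, with 34.3, 29.3, 0.42 and 0.54, which is overlapped on the same strand by the read-through gene RAB4B-EGLN2, so that its counts are uncertain.

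Of the 26 other hypoxia targets, 17 reached 10 CPM. In RV the median log2 ratio of the 17 genes over S was 0.44. At least 2-fold higher there was 1 gene (5.88%) and 0 were lower, beside 1.87% and 1.21% of all genes. In RVC 10 were higher and 1 lower, and in RVT 9 were higher and 2 lower, with medians of 1.15 and 1.04, beside medians of 0.16 and 0.22 over all genes. The shares that were higher were 58.8% and 52.9%, compared with 22.5% and 28.4% of all genes, and those that were lower were 5.88% and 11.8%, compared with 23.3% and 24.4%. These medians and shares are as counted, and were not calculated with centring on GC content, which lowered ratios of some of these genes. Here too the minimum was taken in the mean of the 4 libraries, and genes such as PLOD2 passed it through RVC and RVT. In RVT the median, also as counted, was -0.28 for the 27 of the 34 genes at this level, and -0.056 for the 7 of them from the hypoxia response. Higher in both RVC and RVT were the collagen-modifying enzymes P4HA2, PLOD1, PLOD2 and LOXL2, together with ERO1A, INSIG2 and WSB1, of which ERO1A (0.85 in RVC and 0.36 in RVT) and WSB1 (0.92 in RVC) lay under 2-fold after centring on GC content. DDIT4, an inhibitor of mTORC1, was lower in both. PLOD2 had 5.97 CPM in S and 9.12 in RV, and 21.9 in RVC and 66.6 in RVT, and DDIT4 had 185, 170, 17.4 and 42.1. HILPDA was lower in RVT than in RVC, with 51.8 CPM in RVC and 17.2 in RVT, whereas RIOK3 was higher, with 13.4 and 46.1.

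Among 26 further genes of glucose metabolism, 7 reached 10 CPM, and the median log2 ratio as counted was 0.13 in RV, -0.08 in RVC and -0.37 in RVT. SLC16A7, another monocarboxylate transporter, was higher in RVC and RVT, with 5.69 (S), 5.52 (RV), 13.4 (RVC) and 24.3 (RVT), although its log2 ratio of 1.24 in RVC was 0.56 after centring on GC content, and G6PC3 and BSG were lower in both, although the ratio of G6PC3 was -0.04 in RVC and turned to 0.35 in RVT after centring on GC content. BSG, the chaperone of the lactate transporters, had 260 in S against 285 (RV), 35.9 (RVC) and 40.3 (RVT), but its transcript end has 62.2% GC, and the log2 ratios of -2.86 and -2.69 were -0.36 and -0.29 after centring. Of the 7 genes of the pentose phosphate pathway, 1 was higher and 3 were lower in RVC, and 3 were lower in RVT (42.9% lower in both, compared with 23.3% and 24.4% of all genes). The gene that was higher in RVC was RPE, at 1.02 and at 0.60 after centring. Of those lower, PGLS and RPIA were lower in both, with PGLS at -0.41 in RVT after centring. In RVT over RVC, RPE and TALDO1 were lower. Of 12 genes of mitochondrial pyruvate use, 8 reached 10 CPM. PDP1, the phosphatase that activates pyruvate dehydrogenase and so opposes PDK1, had 8.07 in S and 17.2 in RV, and 64.6 in RVC and 29.4 in RVT and was above 2-fold in each resistant library, whereas PDK2 and the pyruvate carrier subunit MPC2 were lower in RVC and RVT, which for PDK2 became -0.42 in RVC and turned to 0.33 in RVT after centring on GC content.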

How the data were processed

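Single-cell RNA was sequenced from 1 library for each of the 4 cultures. The authors converted the reads with bcl2fastq 2.20.0.422 and processed them with Cell Ranger on GRCh38, per the labels, and deposited tables of UMI counts as whole numbers, not normalized, with genes in rows and cell barcodes in columns. The Cell Ranger version, the annotation and the handling of strand are not given in the sources used here. The members and gene lists were chosen with earlier results of these data known.

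Barcodes with fewer than 500 genes or more than 20% mitochondrial UMIs were removed, as were those with the highest scrublet scores (scanpy 1.11.5) at 0.8% per 1000 barcodes, 358 (S), 150 (RV), 616 (RVC) and 777 (RVT). This number rests on the rate, since the threshold of scrublet itself marked 5, 2, 1 and 1. UMIs were summed per gene and library and divided by the total per 1000000 (CPM). A count of 0 was taken as 3 UMIs in ratios, and genes needed 10 CPM in the mean of the libraries to be counted past 2-fold. Intervals at 95% are Poisson for levels, binomial for shares and conditional binomial for ratios. PCR duplicates were removed through UMIs, but intervals and the floor of 3 UMIs cover counting error only. All 35 members are reported; of the other lists, genes past 2-fold in RV over S, the same way in RVC and RVT over S, or in RVT over RVC, apart from 1 gene that is not reported here. Cells were thinned to 1500 UMIs with a fixed seed. Promoter windows came from RefSeq (GRCh38.p14), gene positions from GENCODE 29. Calculations used scipy 1.17.1, pandas 2.3.3, numpy 2.4.6 and matplotlib 3.10.9 under Python 3.11.15. Alternatives were other cell filters, TMM factors of edgeR 4.0.16, other library sizes, equal weight per cell, centring within 20 bins of GC content, other minimum levels and folds, and ALDOA included. Shares within a family with centred ratios were added after the values were seen. The calculation of ratios was tested on simulated sums.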

Additional observations from a re-analysis of the deposited data

How the results depend on the processing

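With 1 library per condition, no result has a test or a replicate to leave out, and these values show only how far the ratios depend on the processing. The 140 log2 ratios of single genes cover all 35 members, including ALDOA and genes under 10 CPM in the mean. The counts past 2-fold given above leave these genes out. Of the 140 ratios, 40 were past 2-fold. All 40 stayed past it with all barcodes, without doublet removal and with equal weight for every cell. With at least 1000 genes per cell 39 stayed, with TMM factors 37, and with library sizes without ribosomal and mitochondrial genes 36. In cells of 3000 to 6000 UMIs 33 stayed, and after centring within bins of GC content 32. Of all 140 ratios, 21 turned in direction after centring on GC content, 15 in cells of 3000 to 6000 UMIs, 11 with TMM factors, 7 with library sizes without ribosomal and mitochondrial genes, 3 with equal weight for every cell and 1 each under the other cell filters. Among those past 2-fold, direction turned after centring for PFKL (0.69 in RVC and 0.70 in RVT over S) and SLC16A3 (1.23 in RVT over S), and for EGLN3, with few UMIs, in cells of 3000 to 6000 UMIs (-1.98 in RVT over S). The log2 ratio of the 34 summed genes over S was 0.16 in RV, -0.13 in RVC and -1.24 in RVT with ALDOA, -0.071 in RVC and -1.18 in RVT with all barcodes, and -1.13 in RVT with at least 1000 genes per cell. In cells of 3000 to 6000 UMIs it was 0.069 in RV, -0.25 in RVC and -1.34 in RVT, with TMM factors 0.10, -0.28 and -1.69, without ribosomal and mitochondrial genes 0.081, -0.25 and -1.25, with equal weight for every cell 0.15, -0.10 and -1.21, and after centring on GC content 0.10, 0.19 and -0.73. In RVT over RVC it was -1.06 with at least 1000 genes, -1.09 in cells of 3000 to 6000 UMIs, -1.41 with TMM factors, -0.99 without ribosomal and mitochondrial genes and -1.05 after centring. Genes at least 2-fold higher in RV over S numbered 3 at a minimum of 3 CPM, 5 in cells of 3000 to 6000 UMIs, and 0 with TMM factors or centring, compared with 1. Those higher in RVT over S numbered 3 at 3 CPM, and 2 with at least 1000 genes, without doublet removal, in cells of 3000 to 6000 UMIs and after centring, compared with 1. Those lower in RVC over S numbered 2 with ALDOA, with TMM factors and without ribosomal and mitochondrial genes, and 0 after centring, compared with 1. With TMM factors 10 were lower in RVT over S and 14 in RVT over RVC, compared with 6 and 8. At 1.5-fold, 7 were higher in RV over S, 12 higher and 2 lower in RVC over S, 7 higher in RVT over S, and 3 higher and 16 lower in RVT over RVC. Apart from centring on GC content, the cause of these changes was not tested. Cells of 3000 to 6000 UMIs were few in RV (219) and S (760), which limits the ratios of low genes there, and levels under about 10 CPM rest on few UMIs in RVT.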
